A study of Mus musculus with 144 samples.

Results

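The nuclear-encoded respiratory chain genes made up 91 of the 21869 genes counted in mouse liver and brown adipose tissue (BAT). They were taken by gene symbol alone, with no measured value used: every Nduf, Uqcr and Atp5 gene, Sdha to Sdhd, and the Cox4 to Cox8 genes, without Cox7a1, Cox8b and symbols ending in -ps. The rule gives 38 genes of complex I, 8 Ndufaf assembly factors of complex I, 4 genes of complex II, 8 of complex III, 16 of complex IV and 17 of complex V. The placement of 3 genes follows the symbol rather than present usage. Ndufa4 is counted with complex I but is now assigned to complex IV, and Atp5s and Atp5sl, renamed Dmac2l and Dmac2, are not classic subunits of ATP synthase.

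All mice were wild-type C57BL/6J males, labelled as 6 months old, housed singly with a running wheel and sampled in constant darkness at 12 times, 4 h apart. Calorie-restricted mice received 10 pellets a day, 70% of their baseline intake, within 6 h from the start of the light phase (CR-day) or of the dark phase (CR-night). Time-restricted mice could eat without limit, but within the same 6 h windows (TR-day and TR-night). Control mice had food for 24 h a day (AL, ad libitum). Liver gave 24 libraries for each of the 5 regimens, lettered A or B. From BAT came 11 CR-day libraries with counts, all of letter B, and 12 AL libraries, all of letter A, so that letter and regimen cannot be told apart in BAT. Per the file headers, the liver letters are biological duplicates and BAT has 1 animal per time. No source used here says how letters A and B were handled apart, so p-values measure the spread between these samples, which may be partly technical.

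The respiratory chain of the inner mitochondrial membrane passes electrons from NADH (complex I) and succinate (complex II) through complex III to oxygen at complex IV, and complex V (ATP synthase) uses the resulting proton gradient to make ATP. Most subunits are encoded in the nucleus, and a core set is encoded by mitochondrial DNA. Brown fat is dense in mitochondria and lets protons flow back through Ucp1, which yields heat in place of ATP, and the low ATP synthase content of rodent brown fat has long been tied to a low supply of subunit c, the proton-carrying ring.

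Totals ran from 5830040 to 26649153 counts per liver library and from 6978002 to 11607273 per BAT library. Levels are CPM (counts scaled to library size, with TMM factors). The sums of 7 hepatocyte and of 9 brown adipocyte markers separated the tissues. The hepatocyte sum lay between 7.93 and 331 CPM in BAT AL, against 46960 to 101000 CPM in liver AL. The brown adipocyte sum lay between 8380 and 13330 CPM in BAT AL, against 15.2 to 40.6 CPM in liver AL. BAT libraries also carried skeletal muscle RNA in unequal amounts, as given below with the muscle isoform of complex IV. Residual spread set 6 libraries apart (AL liver at 0 h A and 12 h B, CR-day liver at 8 h B and 44 h B, AL BAT at 20 h and 28 h). By 10 clock genes, 118 of 143 libraries matched their own regimen's profile best at the labelled time and 141 within 4 h of it. At the label matched 16 of 24 in CR-day liver, 16 of 24 in TR-day liver and 6 of 11 in BAT CR-day. In the other groups it was 22 of 24 or more in liver and 12 of 12 in BAT AL. The BAT CR-day library of 24 h had no other library at its clock time. The liver TR-day library of 44 h, letter A, matched best 4 h earlier, with a correlation of -0.745 at its label. The liver TR-day library of 0 h, letter A, and the BAT CR-day library of 32 h matched best 8 h earlier, but the BAT match rested on the 1 library at that time. Of the 91 members, 86 were tested in liver and 89 in BAT and between tissues. Cox8c had no counts, and Cox7b2 had 1 count in 1 liver library. Cox4i2, Cox6a2 and Cox6b2 passed the filter on low counts only with BAT libraries in the fit. Since they entered the tissue comparison through BAT, where they are higher, counts and medians between tissues are given over the other 86 members unless 89 is named.

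Promoters are shown for the 3 subunit c genes, which encode 1 identical mature ring protein, and for Ndufab1. Ndufab1 is the acyl carrier protein and complex I subunit that differed most between tissues among complex I genes. The sequences are RefSeq promoters on GRCm38.p6, each a 150-base stretch of the window around the start. Each is read 5′ to 3′ on its gene's minus strand, and the capitals mark motif matches.
Atp5g1, chr11:96075632-96075781: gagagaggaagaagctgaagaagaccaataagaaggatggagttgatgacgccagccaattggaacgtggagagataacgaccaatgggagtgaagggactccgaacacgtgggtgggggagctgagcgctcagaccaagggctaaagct
Atp5g3, chr2:73911327-73911476: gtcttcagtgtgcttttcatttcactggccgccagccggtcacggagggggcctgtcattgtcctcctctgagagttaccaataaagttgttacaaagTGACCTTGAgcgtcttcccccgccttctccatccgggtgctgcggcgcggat
Atp5g2, chr15:102671048-102671197: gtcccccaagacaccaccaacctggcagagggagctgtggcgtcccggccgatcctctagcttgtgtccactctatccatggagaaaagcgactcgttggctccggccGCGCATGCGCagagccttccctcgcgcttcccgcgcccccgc
Ndufab1, chr7:122101849-122101998: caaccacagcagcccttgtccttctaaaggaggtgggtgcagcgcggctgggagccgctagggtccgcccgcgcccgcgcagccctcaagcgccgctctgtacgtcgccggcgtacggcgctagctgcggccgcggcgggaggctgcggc

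Motifs were searched on both strands of the 300 bases from 250 before to 50 after the start, in the 75 members matched to a RefSeq promoter, 3 of them by synonym. In Atp5g3 the capitals are the ERRα motif TCAAGGTCA on the other strand, and in Atp5g2 they are the NRF1 motif GCGCANGCG on both strands, overlapping itself. The window of Atp5g3 also held 1 NRF1 match outside the stretch printed. The NRF1 motif stood in 22 of the 75 member promoters (29.3%), against 7.03% of the promoters of all 27025 genes and 14.8% of those of 10253 genes tested. For CCGGAAG (GABP) the shares were 24.0% of members, 9.93% of all genes and 19.2% of tested genes. AAGATGGCG (YY1) was found in 12.0% of members, against 1.64% and 3.46%, and the ERRα motif in 2.67%, against 0.466% and 0.293%. The TATAAA box was in 8.00% of member promoters, against 15.7% of all and 9.59% of tested genes. A match describes letters only.

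Most of the respiratory chain was higher in BAT than in liver. Members took up 4.62 ± 0.410% of the reads of nuclear genes in BAT AL (SD, n = 12), against 0.857 ± 0.0660% in liver AL (n = 24), and 4.33 ± 0.326% in BAT CR-day (n = 11), against 0.876 ± 0.0763% in liver CR-day (n = 24). In the edgeR quasi-likelihood test, with p adjusted over all genes (Benjamini-Hochberg, threshold 0.05), 79 of 86 members were higher and 3 lower in BAT AL than in liver AL, or 82 and 3 of 89 with the 3 rare paralogs. Over all 12969 genes tested, 36.5% were higher and 43.1% lower. The median log2 fold change of the 86 members was 1.71, against -0.11 over all genes. Every BAT AL library lay above every liver AL library for 67 of the 86, against 14.9% of all genes, and below for 1, against 17.2%. Mitochondrial transcripts took 61.2% of reads in BAT AL and 22.8 and 13.3% in letters A and B of liver AL, and with library sizes that leave them out 82 of 89 members were higher and 2 lower. In bulk tissue, fewer cells of a type and less RNA per cell cannot be told apart.

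The rise reached all 38 complex I genes (median log2 fold change 1.82), all 4 of complex II (1.43), all 8 of complex III (1.88) and all 11 of complex IV without the 3 paralogs (1.93). Complex V was mixed, with 12 higher and 3 lower of 17 (median 1.43), and 6 of 8 Ndufaf factors were higher (median 0.98). The CR-day tissues gave a like split, with 79 of 86 members higher and 4 lower in BAT CR-day than in liver CR-day, against 35.2% and 43.3% of all genes. The 82 higher members of 89 were the same genes in both regimens, and Atp5g1, Atp5g3 and Atp5j were lower in both. Over the 89, the counts were 82 to 85 higher and 1 to 5 lower under every alternative run, among them an offset for GC content and length.

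**Figure D1:**
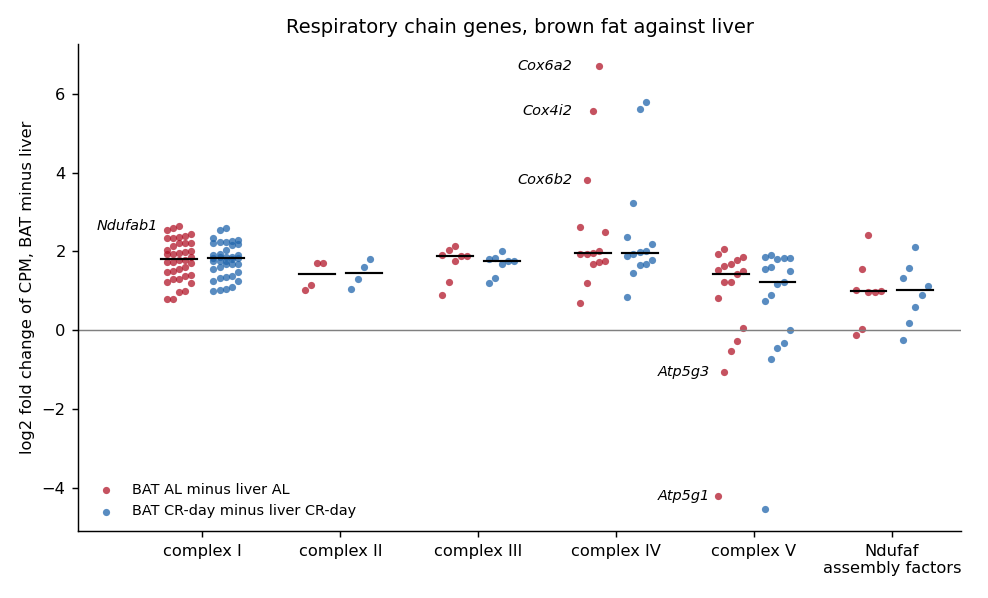
Log2 fold change of CPM between tissues for each of 89 members by complex, BAT AL minus liver AL in red and BAT CR-day minus liver CR-day in blue, with black bars at the medians, the 3 rare paralogs of complex IV included. Complexes I to IV lie wholly above 0, while Atp5g1 at -4.21 and Atp5g3 at -1.06 in the AL pair lie below it.

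In complex I, Ndufab1 had 231, 251 and 294 CPM in BAT AL (lowest, median and highest of 12), against 25.0, 39.2 and 69.7 CPM in liver AL (24 libraries). The groups did not overlap, and its log2 fold change was 2.64 ± 0.10 (SE, adjusted p = 1.2e-51). The flavoprotein subunit Ndufv2 stood at 2.44 ± 0.08, the core iron-sulfur subunit Ndufs1 at 2.02 ± 0.06 and Ndufs7, which carries the last iron-sulfur cluster, at 1.78 ± 0.14. Among accessory subunits the log2 fold changes ran from 0.80 for Ndufa6 to 2.59 for Ndufa5. Per kilobase of transcript, Ndufa6 was the highest complex I gene in liver AL, with 251 CPM per kb in BAT AL and 143 CPM per kb in liver AL. The lowest was Ndufa4l2, a paralog of Ndufa4 known as hypoxia-inducible, with 3.08 CPM per kb in BAT AL and 0.774 CPM per kb in liver AL. Its parent Ndufa4 had a log2 fold change of 1.40 ± 0.08 between the tissues, and Ndufa4l2 one of 1.99 ± 0.23.

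Complex II, the only complex with all its subunits encoded in the nucleus and also an enzyme of the citrate cycle, had its flavoprotein and iron-sulfur subunits further apart between tissues than its membrane anchors. Sdha had 788, 1067 and 1337 CPM in BAT AL, against 225, 337 and 383 CPM in liver AL (lowest, median, highest), a log2 fold change of 1.70 ± 0.07. Sdhb gave 1.70 ± 0.10, and the anchors Sdhc and Sdhd gave 1.15 ± 0.12 and 1.01 ± 0.08. The 4 genes did not overlap between the tissues. The difference between catalytic and anchor subunits was not tested.

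All 8 genes of complex III were higher in BAT AL, from 0.89 ± 0.13 for Uqcrq, a ubiquinone-binding subunit, to 2.15 ± 0.18 for Uqcrb. Uqcrb was its highest gene per kilobase in liver AL, with 673 CPM per kb in BAT AL and 152 CPM per kb in liver AL, and the core protein Uqcrc1 its lowest, with 95.3 CPM per kb in BAT AL and 25.1 CPM per kb in liver AL. The Rieske iron-sulfur subunit Uqcrfs1 gave a log2 fold change of 1.87 ± 0.07.

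In complex V, 12 of 17 genes were higher and 3 lower in BAT AL than in liver AL. The catalytic head was higher in BAT: Atp5a1, the alpha subunit, had 1017, 1494 and 1800 CPM in BAT AL, against 407, 626 and 795 CPM in liver AL, and Atp5b, the beta subunit, had 1254, 1812 and 2183 CPM in BAT AL, against 329, 601 and 754 CPM in liver AL. Neither gene overlapped between the tissues, and the log2 fold changes were 1.24 ± 0.07 and 1.63 ± 0.08. The stalk genes Atp5h (2.05 ± 0.07) and Atp5o (1.87 ± 0.10) were higher too. So were Atp5j2 (1.94), Atp5k (1.77) and Atp5l (1.54), outside the head and the ring. Atp5j, coupling factor 6, was the exception outside the ring, at -0.27 ± 0.11 (adjusted p = 0.0223), but the sign turned to 0.20 with the GC and length offset, and the adjusted p passed 0.05 in 4 of the other alternatives.

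Of the 3 genes of subunit c, Atp5g1 and Atp5g3 were lower in BAT and Atp5g2 did not pass. Atp5g1 (ENSMUSG00000006057.15, chromosome 11, 96068852 to 96075670, GENCODE vM21) had 0.731, 1.59 and 3.01 CPM in BAT AL, against 6.62, 29.8 and 55.2 CPM in liver AL. Its libraries did not overlap, and the log2 fold change was -4.21 ± 0.31 (adjusted p = 4.3e-26), between -4.70 and -3.40 under all alternatives run. Under CR-day it was -4.55, with 0.412 to 1.84 CPM in BAT CR-day and 7.07 to 50.8 CPM in liver CR-day. Atp5g3 (chromosome 2, 73908447 to 73911326) was the main subunit c transcript in both tissues, with 42.5, 49.97 and 64.7 CPM in BAT AL and 55.4, 103 and 168 CPM in liver AL. These ranges overlapped, and its log2 fold change was -1.06 ± 0.15, or -0.34 with the GC and length offset (adjusted p = 0.0204). In the CR-day pair that offset ended the call for Atp5g3 (-0.04, adjusted p = 0.825).

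Atp5g2 did not pass the threshold in the AL pair (-0.52 ± 0.25, adjusted p = 0.0529). It had 3.20, 8.54 and 14.1 CPM in BAT AL, against 2.26, 10.1 and 19.5 CPM in liver AL, and against the letter A libraries of liver AL alone its sign turned to 0.22. Summed over the 3 genes, subunit c gave 46.9 to 74.5 CPM in BAT AL and 64.3 to 242 CPM in liver AL. Set against Atp5b in the same library, that sum was 0.0253 to 0.0418 in BAT AL (median 0.0338) and 0.0303 to 0.0496 in BAT CR-day, against 0.171 to 0.325 in liver AL (median 0.237). In the other liver regimens the lowest ratio was 0.104, so that no BAT library reached any liver library. Atp5g1 made up a median of 3.003% of the subunit c sum in BAT AL, against 20.9% in liver AL. These are ratios of CPM, not corrected for transcript length. The promoter of Atp5g1 held none of the motifs searched, those of Atp5g2 and Atp5g3 held the matches shown, and Ndufab1, with the opposite tissue difference, held none either.

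**Figure D2:**
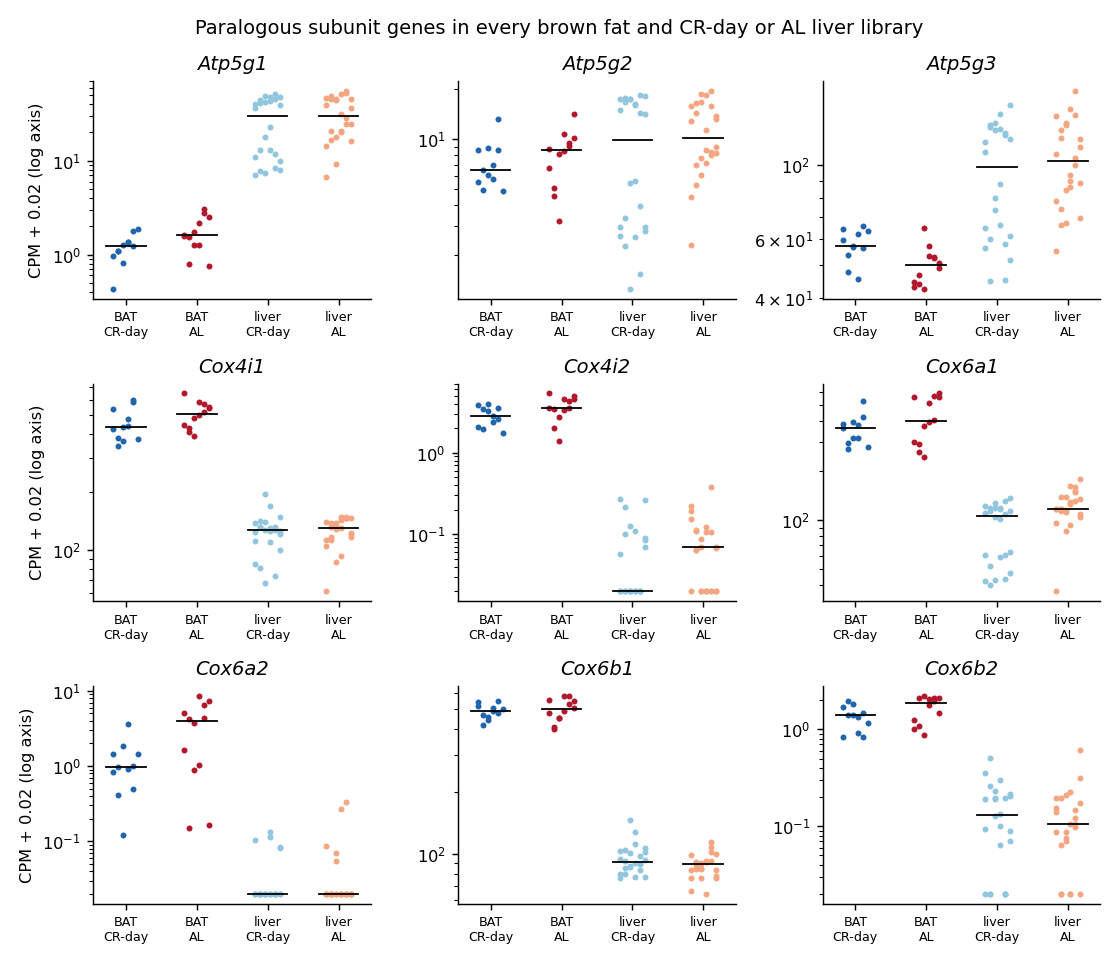
CPM plus 0.02 on log axes in every BAT CR-day, BAT AL, liver CR-day and liver AL library for the 3 subunit c genes and 3 pairs of complex IV paralogs, with black bars at the medians. Atp5g1 lies lower in all 23 BAT libraries than in every liver library, and Cox6a2 spreads over the BAT libraries far more than Cox6b1.

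Complex IV holds several subunits with tissue isoforms. The ubiquitous forms were all higher in BAT AL: Cox4i1 had 389, 509 and 649 CPM in BAT AL, against 61.1, 131 and 149 CPM in liver AL, and Cox6b1 401, 500.4 and 582 CPM in BAT AL, against 64.0, 89.1 and 114 CPM in liver AL, without overlap. Their log2 fold changes were 2.008 ± 0.111 and 2.503 ± 0.074. Cox6a1, Cox7a2 and Cox7b gave 1.76 ± 0.15, 1.74 ± 0.11 and 1.93 ± 0.10, Cox8a gave 1.196 ± 0.259, and Cox7a2l gave 0.68 ± 0.09. Per kilobase, Cox6a1 was highest in liver AL, with 602 CPM per kb in BAT AL and 174 CPM per kb in liver AL, and Cox7c lowest of the members tested in liver, with 56.1 CPM per kb in BAT AL and 17.3 CPM per kb in liver AL.

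The paralogs Cox4i2, Cox6a2 and Cox6b2, known from lung, striated muscle and testis, were rare in both tissues. Cox4i2 (chromosome 2, 152754173 to 152765037) had 338 counts over 12 of 12 BAT AL libraries (1.35 to 5.31 CPM), against 25 counts over 15 of 24 liver AL libraries (0 to 0.359 CPM). Cox6a2 (chromosome 7, 128205435 to 128206387) had 349 counts in 12 of 12 BAT AL libraries, against 13 counts in 5 of 24 liver AL libraries. Cox6b2 had 160 counts in BAT AL and 44 in liver AL. The fitted log2 fold changes of 5.56 ± 0.30, 6.71 ± 0.45 and 3.83 ± 0.32 are a description only, since these genes entered the fit through BAT and, with so few liver counts, the values depend on the prior count. Pooled over libraries, Cox6a2 stood at 3.42 CPM in BAT AL and 0.0400 CPM in liver AL.

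Cox6a2 ran from 0.130 to 8.56 CPM among BAT AL libraries, and skeletal muscle markers varied with it. The sum of 9 muscle markers, all with counts in BAT, ran from 3.51 to 2433 CPM in BAT AL (median 1791) and from 99.7 to 899 CPM in BAT CR-day (median 546), while no liver library passed 5.79 CPM. At 20 h and 28 h in BAT AL the sums were 3.51 and 18.3 CPM and Cox6a2 was at 0.146 and 0.130 CPM. Cox7a1 and Cox8b, isoforms outside the rule that are abundant in brown fat and muscle, had 187 and 123 CPM and 264 and 161 CPM in those 2 libraries, inside the range of the other BAT AL libraries (114 to 217 and 142 to 306 CPM). Without the 7 BAT AL libraries over 1000 CPM of muscle markers, the Cox6a2 log2 fold change was 4.56, and 82 of 89 members were higher and 2 lower than in liver AL. The part of muscle RNA in the Cox6a2 level was not tested further.

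**Figure D3:**
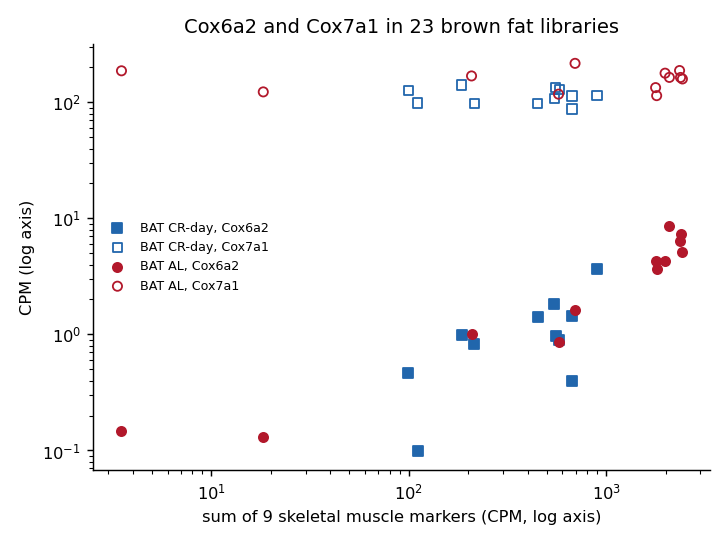
CPM of Cox6a2 (filled) and Cox7a1 (open) against the sum of 9 skeletal muscle markers in each of 23 BAT libraries, CR-day as blue squares and AL as red circles, both axes log. The 3 lowest Cox6a2 values, 0.0995 to 0.146 CPM, belong to libraries with sums of 3.51 to 111 CPM, while Cox7a1 stays between 87.6 and 217 CPM at all sums.

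Of the Ndufaf assembly factors, which act during the building of complex I and leave it, Ndufaf5 was the furthest apart (2.41 ± 0.12), and Ndufaf6 and Ndufaf8 did not pass the threshold (-0.12 ± 0.11 and 0.03 ± 0.18). Assembly factors of the chain outside the rule gave 33 higher and 3 lower of 38, with a median log2 fold change of 0.83. Genes around the chain went the same way: 11 of 12 citrate cycle genes (median 2.80), 10 of 11 electron carriers (1.29) and 12 of 13 mitochondrially encoded subunits (2.44) were higher in BAT AL than in liver AL. Of 15 regulators tested, 6 were higher and 7 lower. Those higher were Ppargc1b (3.55), Esrrg (2.59), Esrra (1.70), Tfb2m (1.27), Ppargc1a (0.93) and Gabpa (0.28), and those lower were Ppara (-1.55), Pprc1 (-1.39), Yy1 (-0.77), Twnk (-0.61), Nrf1 (-0.27), Polg (-0.25) and Tfam (-0.23). Both groups hold coactivators or nuclear receptors and factors of mitochondrial gene expression. Cytosolic ribosomal proteins, another large set of short and abundant transcripts, gave 14 higher and 38 lower of 78 (median -0.22). Of the other cell types, 3 of 3 endothelial and 2 of 2 white fat markers were higher in BAT AL and 5 of 5 macrophage markers lower.

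Few members differed in level between BAT CR-day and BAT AL, where regimen and letter cannot be told apart. In BAT CR-day against BAT AL, 0 members were higher and 4 lower of 89 by edgeR's test, against 2.74% higher and 3.81% lower of 10966 genes, and 7 and 9 were past an unadjusted p of 0.05. DESeq2 called 3 higher and 4 lower. The 4 lower members were Atp5d, the delta subunit of the ATP synthase head (-0.32 ± 0.08), Ndufs7 (-0.30), Ndufs8, another iron-sulfur subunit of complex I (-0.29), and Ndufa3 (-0.28). Ndufs8 had 111, 133 and 148 CPM in BAT CR-day (lowest, median, highest), against 127, 171 and 209 CPM in BAT AL, and Atp5d 142, 203 and 284 CPM in BAT CR-day, against 191, 262 and 302 CPM in BAT AL. Both pairs of ranges overlapped. No member passed on the first or on the second day alone, nor without the 7 libraries rich in muscle markers, where 15 were past an unadjusted p of 0.05. These fits hold fewer libraries, with 5 of BAT AL left in the last, and so can detect less. Atp5d and Ndufs7 lost their call with the GC and length offset.

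The brown adipocyte markers gave 0 higher and 4 lower of 9 in the same comparison, macrophage markers 2 higher of 4 tested and muscle markers none of 9, with a median log2 fold change of -1.55 for muscle. Endothelial and white fat markers gave 0 of 3 and 0 of 2. Ucp1, the uncoupling protein, averaged 1892 CPM in BAT CR-day and 2963 CPM in BAT AL. Their part in the member differences was not tested. The response to CR-day in BAT minus that in liver passed for 0 members of 89 in level, with 8 past an unadjusted p of 0.05, against 2.99% of all genes.

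Liver regimens were read against the replicate letters, because letters A and B of the same regimen differed widely. Letter B against letter A gave 30 higher and 21 lower members of 86 in AL, against 30.5% and 27.6% of 11926 genes, and 29 higher and 42 lower in CR-day, against 39.0% and 37.0%. In CR-night the counts were 18 and 1 (7.14% and 6.14%), in TR-day 47 and 0 (7.89% and 7.09%) and in TR-night 44 and 4 (11.7% and 9.46%). Mitochondrial transcripts took 29.4% of reads in CR-day B and 13.7% in CR-day A, 13.3% in AL B and 22.8% in AL A, and 27.1 to 32.1% on average in the letters of the other regimens. The letter difference followed GC content in opposite directions: across the 86 members, Spearman's rho of the log2 fold change of B over A with gene GC was -0.585 in CR-day and 0.555 in AL, and -0.79 and 0.796 across all genes. Genes of one library share its depth and base composition, so these are descriptions. The members Cox8a, a small complex IV subunit, Ndufa11, a membrane-arm subunit of complex I, and Atp5g2, at 58.5, 58.0 and 63.3% GC, were the furthest down in CR-day B.

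**Figure D4:**
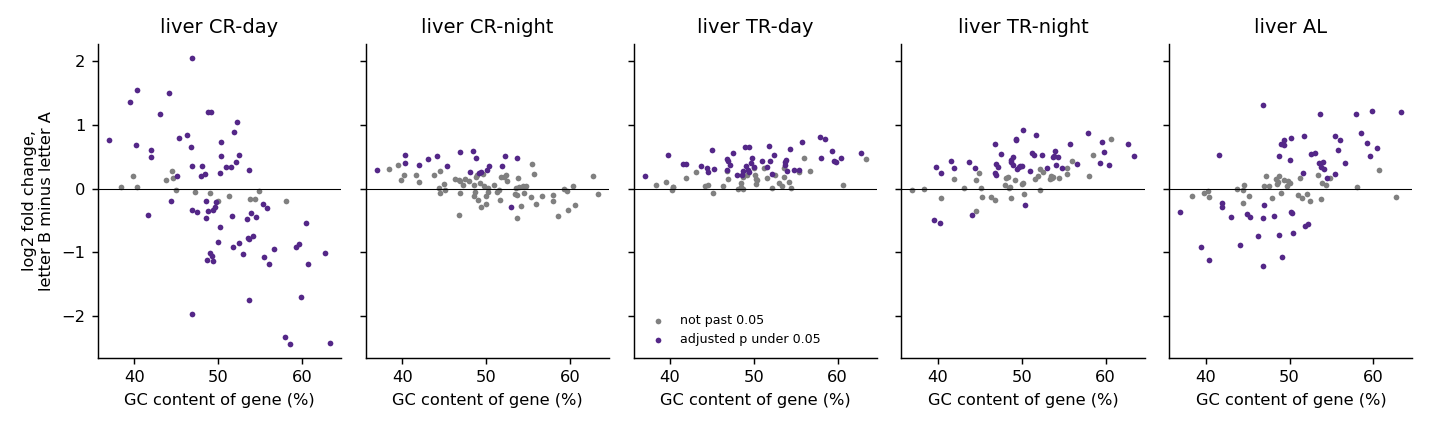
Log2 fold change of letter B over letter A against gene GC content for the 86 members in each liver regimen, purple where the adjusted p was under 0.05. The cloud slopes down in CR-day and up in AL, and lies mostly above 0 in TR-day and TR-night.

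With the letters pooled, CR-day liver gave 5 members higher and 3 lower than AL liver, against 12.6% and 6.98% of genes, and a median log2 fold change of -0.02. Within letters no member passed in the same direction in A and in B (0 higher and 0 lower, against 0.998% and 1.13% of genes), and 52 passed in opposite directions. Atp5f1, a stator subunit, averaged 256 CPM in CR-day B and 136 CPM in AL B, but 151 CPM in CR-day A and 174 CPM in AL A. For Cox8a the means were 15.4 CPM in CR-day B and 74.6 CPM in AL B, and 80.9 CPM in CR-day A and 41.2 CPM in AL A. The letter A libraries fitted alone called 58 members and the letter B libraries 64. Large parts of all genes passed within a letter too. In the fit of both letters, A gave 33 members higher and 23 lower, against 3513 and 3286 of 11926 genes. B gave 28 and 39, against 4699 and 4623 genes. No level difference of a member between CR-day and AL liver held in both letters.

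The other 3 regimens stood apart from AL liver in both letters, with more members lower than higher, though by count less so in letter B. CR-night gave 20 higher and 50 lower of 86, against 38.1% and 41.1% of genes, TR-day 23 and 49, against 38.3% and 42.1%, and TR-night 21 and 51, against 39.4% and 41.3%. Member medians were -0.31, -0.31 and -0.27 in log2, against -0.02, -0.03 and -0.01 over all genes. Letter A gave 4 higher and 47 lower in CR-night (2791 and 3137 of 11926 genes). In TR-day it gave 11 and 52 (3686 and 4200) and in TR-night 11 and 57 (3990 and 4313). Letter B gave 27 and 49 in CR-night (4673 and 5001). In TR-day it gave 28 and 42 (4469 and 4862) and in TR-night 27 and 39 (4525 and 4751). The medians were -0.27, -0.31 and -0.37 in A and -0.35, -0.18 and -0.13 in B. Past the threshold in letter A and in letter B alike were 4 higher and 39 lower in CR-night (20.3% and 22.9% of genes), 11 and 39 in TR-day (26.4% and 30.7%) and 11 and 37 in TR-night (29.7% and 32.2%). With an offset for GC content and length the splits became 26 and 39, 30 and 35, and 26 and 42, and the medians -0.08, -0.04 and -0.13. Cytosolic ribosomal proteins moved likewise (17 and 46, 16 and 44, 17 and 48 of 77), and the 13 mitochondrially encoded subunits gave 11, 11 and 12 higher and 0, 0 and 1 lower. Macrophage markers were lower for 4 of 5 in each of the 3 regimens, and their part was not tested. All 3 comparisons share the AL libraries. Mitochondrial transcripts averaged 27.1 to 32.1% of reads in both letters of these 3 regimens, against 22.8 and 13.3% in letters A and B of AL. Letter B of CR-day, at 29.4%, stood near them, with 6 members higher and 0 lower than in letter B of CR-night. Agreement of the letters therefore cannot tell the regimen from other properties of the libraries.

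The members furthest down were Cox8a, Ndufa11 and Atp5g2. Cox8a averaged 12.0 ± 5.23 CPM in CR-night, 12.0 ± 7.71 CPM in TR-day, 10.3 ± 4.56 CPM in TR-night and 56.6 ± 21.2 CPM in AL liver (SD, n = 24 each), with log2 fold changes of -2.27, -2.26 and -2.51. Ndufa11 gave -2.04, -2.37 and -2.26, and Atp5g2 -1.93, -1.97 and -1.92. With the GC and length offset these became -1.198, -1.197 and -1.384 for Cox8a, -1.03, -1.33 and -1.16 for Ndufa11, and -0.59, -0.58 and -0.49 for Atp5g2, all still past the threshold. Furthest up were Cox6c, a small complex IV subunit, at 1.19, 1.37 and 1.26, Uqcrb at 0.94, 1.24 and 1.12, and the assembly factor Ndufaf4 at 0.82, 1.06 and 1.02. Cox6c averaged 338 ± 115 CPM in CR-night, 383 ± 102 CPM in TR-day, 353 ± 71.8 CPM in TR-night and 148 ± 101 CPM in AL liver. The offset kept Cox6c at 1.06 to 1.23 but took Uqcrb to 0.46, 0.69 and 0.55 and Ndufaf4 to 0.22, 0.39 and 0.34. In CR-night letter A alone, Uqcrb (0.21) and Ndufaf4 (0.25) did not pass. All members named here also differed between letters within CR-day and within AL liver, where feeding was the same. Letter B minus letter A gave log2 values of 2.05, 1.555 and 1.35 in CR-day liver for Cox6c, Uqcrb and Ndufaf4. In AL liver the values were -1.22, -1.11 and -0.91. For Cox8a, Ndufa11 and Atp5g2 they were -2.43, -2.33 and -2.42 in CR-day and 0.88, 1.18 and 1.197 in AL liver. The part of these letter differences in the regimen changes was not tested.

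Ndufs1, Atp5d and Cox6a1, chosen after their values were seen, moved the same way in both letters of these 3 regimens, by amounts that were near each other for Ndufs1 and further apart for the other two. Ndufs1 averaged 125 and 123 CPM in letters A and B of CR-night, 134 and 128 CPM in TR-day and 120 and 120 CPM in TR-night, against 105 and 96.9 CPM in AL liver, and its log2 fold changes within letters lay between 0.19 and 0.40. Atp5d fell by 0.57 and 1.29 in letters A and B of CR-night, by 0.94 and 1.06 in TR-day and by 0.84 and 1.16 in TR-night, on the log2 scale. Cox6a1 fell by 1.66 and 1.32, 1.72 and 1.03, and 1.90 and 1.06. Atp5d and Cox6a1 have 59.3 and 62.7% GC, and Ndufs1 45.1%. Their changes with the GC and length offset are not given here.

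Day feeding against night feeding under restriction gave 48 members higher and 13 lower in CR-day than in CR-night liver, against 37.8% and 30.1% of genes, with a median of 0.30. The GC and length offset gave 33 higher and 16 lower. Only 6 members were higher in both letters, and 0 lower, against 3.06% and 2.71% of genes: Atp5d (1.31 in A, 0.40 in B), Ndufb9 (0.43, 0.32), Ndufb3 (0.44, 0.34), Ndufs5 (0.74, 0.44), Cox4i1 (0.52, 0.42) and Uqcr10 (1.21, 0.51). A fit of the letter B libraries alone called none of the 86. TR-day against TR-night gave 0 higher and 1 lower, against 1.65% and 1.77% of genes, with 0 and 0 in both letters (0.528% and 0.302%), and 12 members past an unadjusted p of 0.05. The 1 was Cox7a2l, with 29.4 ± 8.73 CPM in TR-day and 35.4 ± 8.93 CPM in TR-night liver (-0.27 ± 0.08, adjusted p = 0.0331).

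How many members cycled over the day depended on how the replicate letters were fitted. With letters pooled, a 24 h rhythm, tested on the cosine and sine terms jointly, passed for 11 of 86 members in CR-day liver (16.4% of genes), 11 in CR-night (35.3%), 5 in TR-day (15.5%), 11 in TR-night (26.4%) and 2 in AL (12.4%). In all, 26 of the 86 passed in at least 1 liver regimen, while 35.3% of all genes passed in CR-night alone. The median amplitude, from mean to peak in log2, was 0.172 in CR-day liver, against 0.191 over all genes, 0.185 in CR-night (0.269), 0.155 in TR-day (0.207), 0.205 in TR-night (0.242) and 0.133 in AL liver (0.179). With an intercept for each letter the counts in the same order were 29, 43, 14, 36 and 5, against 26.1, 50.8, 27.6, 39.1 and 20.4% of all genes. Without the distant libraries CR-day gave 5, CR-night 20 and TR-night 19.

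Apart from Atp5s and Atp5sl, peaks of rhythmic members lay closer together in CR-day and TR-night liver than in CR-night and TR-day liver. With letters pooled, all 10 such members of CR-day liver peaked between circadian time (CT, in hours) 6.71 and 9.64. All 9 of TR-night liver peaked between CT 14.4 and 17.8. The 9 of CR-night liver peaked between CT 12.4 and 18.9, and the 3 of TR-day liver between CT 9.19 and 20.3. With Atp5s and Atp5sl, where rhythmic, peaks ran from CT 2.57 to 9.64 in CR-day and from CT 7.76 to 17.8 in TR-night. In CR-night they then ran from CT 6.02 to 18.9 and in TR-day from CT 3.39 to 20.5. Ndufv2 had an amplitude of 0.27 ± 0.07 with its peak at CT 8.40 ± 0.95 in CR-day liver (adjusted p = 0.00458). Ndufaf4 peaked at CT 14.3 ± 0.98 in CR-night and CT 16.6 ± 1.12 in TR-night liver, with amplitudes of 0.61 ± 0.16 and 0.53 ± 0.16, and did not pass in CR-day (adjusted p = 0.0532), TR-day (0.110) or AL (0.253).

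Atp5s passed in all 5 liver regimens, with amplitudes of 0.47 to 0.65. It peaked at CT 2.57 ± 0.95 in CR-day and CT 3.39 ± 0.84 in TR-day, later at CT 6.02 ± 0.77 in CR-night and CT 7.76 ± 0.69 in TR-night, and at CT 7.94 ± 0.86 in AL liver. In TR-night its 4 libraries averaged 7.62 CPM at CT 8 and 2.70 CPM at CT 20, and in AL 4.07 and 1.73 CPM. Atp5sl peaked at CT 20.5 ± 1.33 in TR-day, but at CT 9.42 ± 1.00 in CR-night, CT 9.13 ± 0.91 in TR-night and CT 9.95 ± 1.25 in AL liver, and did not pass in CR-day (adjusted p = 0.362). Cox7a2l peaked at CT 20.3 ± 1.03 in TR-day, against CT 14.4 ± 1.198 in TR-night, and at CT 13.0 ± 1.18 under CR-night.

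Over all genes, changes of rhythm against AL liver were found with daytime feeding and hardly any with night feeding. Members followed the same split, but with smaller shares in the daytime regimens than all genes. Against AL liver, 7 members changed in CR-day (21.9% of genes) and 5 in TR-day (16.3%). In CR-night 0 changed by edgeR's test (0.0252% of genes, 0 members past an unadjusted p of 0.05) and in TR-night 0 (0.00839%, 1 member unadjusted). Ndufaf4, Ndufaf5, Atp5s and Atp5sl changed in both daytime regimens, with Ndufa8, Ndufaf3 and Ndufv2 in CR-day and Cox7a2l in TR-day. Between day and night windows 14 members changed under CR (34.0% of genes) and 8 under TR (25.8%), among them Ndufaf4, Atp5sl, Ndufaf7, Ndufv2 and Cox7a2l in both. Without the TR-day letter A libraries of 0 h and 44 h, 5 members were rhythmic in TR-day, Atp5s, Ndufaf7 and Cox7a2l among them, and 4 changed against AL.

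In BAT AL 15 of 89 members were rhythmic, against 10.5% of genes, and in BAT CR-day 7, against 15.1%. Apart from Atp5sl, the 14 in BAT AL peaked between CT 17.3 and 19.4, among them Cox5b, a matrix-side subunit of complex IV (amplitude 0.42 ± 0.07, CT 17.7 ± 0.64, adjusted p = 0.00510). The 2 distant BAT AL libraries, at 20 h and 28 h, were also the 2 with the least muscle RNA, and without them 5 members passed (6.84% of genes), while 16 passed with the muscle sum as a covariate. In BAT CR-day Ndufaf4 peaked at CT 8.15 ± 0.71 (amplitude 0.59 ± 0.10) and the other 6 between CT 18.7 and 21.4. The GC and length offset left 1 rhythmic member there. Leaving out the library of 32 h left 2 (10.8% of genes), with Ndufaf4 still past the threshold (adjusted p = 0.0136).

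**Figure D5:**
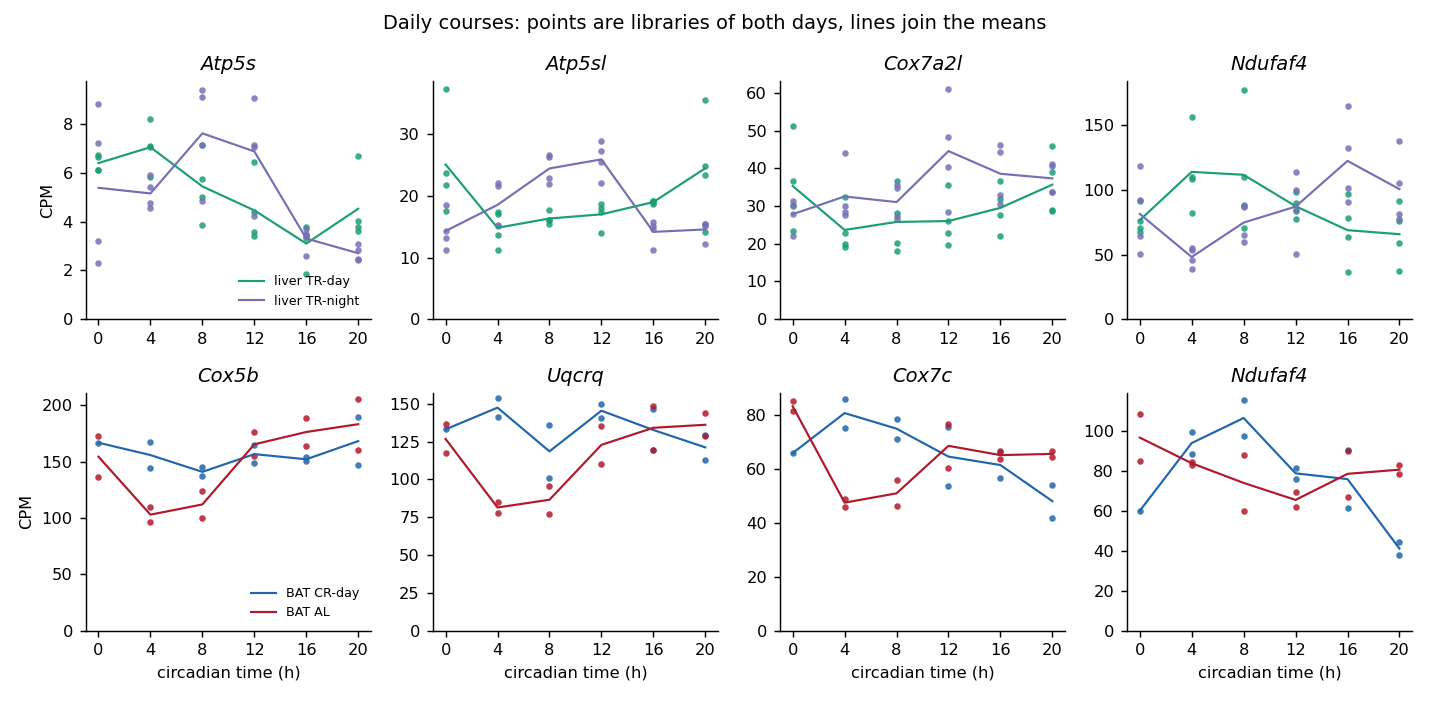
CPM by circadian time for 4 members in TR-day and TR-night liver (top) and 4 in BAT CR-day and BAT AL (bottom), with points for libraries of both days and lines through their means. Atp5sl and Cox7a2l are highest at different hours in TR-day and TR-night, and Cox5b, Uqcrq and Cox7c are lowest at CT 4 or 8 in BAT AL.

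In all, 3 members changed rhythm in BAT CR-day against BAT AL, Ndufaf4 (adjusted p = 0.00579), Cox7c (0.0348) and Uqcrq (0.0495), against 12.1% of genes, with 24 past an unadjusted p of 0.05. Ndufaf4 averaged 94.1 and 107 CPM at CT 4 and 8 and 41.2 CPM at CT 20 in BAT CR-day, against 84.0, 74.1 and 80.8 CPM in BAT AL, from 2 libraries per time. Without the 2 distant BAT AL libraries only Ndufaf4 passed, and without the BAT CR-day library of 32 h 7 members passed (11.3% of genes), these 3 among them. The change of rhythm with CR-day differed between BAT and liver for Sdhd (adjusted p = 0.0393) and Atp5s (0.0483), against 5.72% of all genes. In liver the letter difference itself differed between CR-day and TR-day for 69 of 86 members, against 69.9% of all genes.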

How the data were processed

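Poly(A) mRNA-seq of mouse liver and BAT was used as the raw gene counts the authors deposited, 1 table per tissue and regimen, per the file headers. FastQC, cutadapt, STAR and featureCounts are named in the submitters' processing notes, while versions, genome build and strand setting are not given in the sources used here. Gene lengths came from the authors' deposited length column for 85 members and from GENCODE vM21 for 6. Of 144 count columns 143 were used. The column left out, a second one headed 44 h in the BAT CR-day table, equals the liver CR-day letter B library of 44 h in every gene, and the BAT CR-day library of 0 h, which has only RPKM values in another table, was not used here.

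Counts were fitted in edgeR 4.0.16 (R 4.3.3, limma 3.58.1) with TMM scaling, a filter on low counts by group (filterByExpr), and an intercept, cosine and sine of a 24 h period per group, for liver, BAT and both tissues. Level is the difference of intercepts. A rhythm is the joint quasi-likelihood F test of cosine and sine, and a change of rhythm that of their differences, all adjusted by Benjamini-Hochberg over all genes of the fit. Within-letter differences came from a liver fit with an intercept per regimen and letter. Amplitudes and peaks are least-squares fits to log2 CPM with a prior count of 2. The SE of a log2 fold change is its size over the root of F. Libraries were called distant where their residual spread exceeded the median of their tissue by more than 4 median absolute deviations. The fits were also run on simulated counts with planted level changes and rhythms but no letter difference or GC trend. Those runs cannot show how the fits behave under the letter differences seen in liver.

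Members were named by role, by highest and lowest level per length, and by largest change or smallest p in each comparison, and some further ones for their role after their values were seen. Members and gene lists were chosen with earlier results of these data known. Alternatives were DESeq2 1.42.0 and its size factors, no filter, library sizes without mitochondrial genes, an offset per library from GC content and length, a replicate block, single letters or days, and leaving out distant libraries or the TR-day libraries of 0 h and 44 h of letter A. Chosen after seeing the data were leaving out BAT libraries over 1000 CPM of muscle markers, the muscle covariate, leaving out the BAT CR-day library of 32 h, and 3 of the comparisons (BAT CR-day against liver CR-day in level, and both day-against-night changes of rhythm). Single libraries were otherwise not left out in turn, since each regimen holds over 10. Letter differences of the liver regimens correlated between -0.856 and 0.579 across genes, so the letters do not pair samples. Reads carry no molecular identifiers, and the number of counts limits precision for counting error only.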

Additional observations from a re-analysis of the deposited data

Results flagged for a closer look

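For 2 of 89 members (2.25%), against 5.72% of all genes, the change of rhythm under CR-day differed between BAT and liver by the test of that difference: Sdhd (adjusted p = 0.0393) and Atp5s (0.0483). The members' share lies below that of all genes. In BAT the CR-day libraries are all of letter B and the AL libraries all of letter A, so regimen and letter cannot be told apart there.

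The difference between letters B and A differed between CR-day and TR-day liver for 69 of 86 members, against 69.9% of all genes. Cox8a averaged 15.4 CPM in letter B and 80.9 CPM in letter A of CR-day liver, and 15.3 CPM in letter B and 9.20 CPM in letter A of TR-day liver. What separates the letters was not tested.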

How the results depend on the processing

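Between BAT and liver, the counts of called members stayed within 1.5 times under every alternative run. The sign of Atp5j turned to 0.198 in the AL pair and 0.09992 in the CR-day pair with the GC and length offset, and that of Atp5g2 to 0.2203 against letter A of liver AL. BAT CR-day against BAT AL gave 0 called members on the first day alone, 0 on the second, 0 without BAT libraries over 1000 CPM of muscle markers, and 7 by DESeq2. For CR-day against AL liver the replicate block gave 4, letter A alone 58 and letter B alone 64. For CR-day against CR-night letter B alone gave 0. For TR-day against TR-night the count of 1 became 4 with DESeq2's size factors, 0 without the filter, 6 with the GC and length offset, 5 without distant libraries, 8 in letter A, 2 in letter B and 4 by DESeq2. The replicate block moved no other count past 1.5 times. It fits 1 letter difference for all regimens, but those of AL and CR-day liver correlated at -0.856 across genes. The block therefore cannot take up the letter differences within regimens.

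Counts of rhythmic members moved in both directions. Without the filter, liver AL gave 1 and TR-day 3. With the GC and length offset, liver AL gave 4, CR-night 17, TR-day 10 and BAT CR-day 1. Without distant libraries, CR-day gave 5, CR-night 20, TR-night 19 and BAT AL 5. With an intercept per letter, CR-day gave 29, CR-night 43, TR-day 14, TR-night 36 and AL 5. Changes of rhythm between CR-day and AL liver numbered 11 with the GC and length offset and 19 with letter intercepts. Between CR-day and CR-night they numbered 9 with DESeq2's size factors, 9 without the filter and 37 with letter intercepts, and between TR-day and TR-night 13 with letter intercepts. Between BAT CR-day and BAT AL they numbered 7 with the offset, 1 without distant libraries and 7 without the BAT CR-day library of 32 h, which also left 2 rhythmic members in BAT CR-day. The cause was not tested. BAT rhythms rest on 2 libraries per clock time, or 1, and Cox6a2, Cox4i2 and Cox6b2 on few liver counts.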
